A study of Mus musculus with 32 samples.

Results

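The transcription factor p53, its gene Trp53 and 9 genes known as its transcriptional targets were followed in the forebrain (Fb) and midbrain (Mb) of mouse embryos with mutated type II cadherins. The 10 members were taken as a fixed list (Cdkn1a, Mdm2, Bax, Trp53inp1, Ccng1, Phlda3, Sesn2, Pmaip1, Bbc3 and Trp53), matched by Ensembl identifier to the gene column of the deposited tables. All 10 were found among 48576 identifiers. The rule uses gene names and no expression value, and earlier results of these data were known when the list was drawn up.

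The p53 protein is kept scarce by Mdm2, a ubiquitin ligase that marks it for degradation and whose own gene p53 switches on. Stress such as DNA damage or disturbed ribosome production frees p53, which then raises genes that stop the cell cycle, limit growth or start apoptosis. In the early neural tube its activity is known from mutants in which inappropriate activation removes neuroepithelial cells and impairs tube closure. Because control of p53 acts mainly on the protein, the mRNA level of Trp53 is not a measure of its activity, and the mRNA of the target genes is the closer readout in RNA-sequencing.

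RNA was sequenced from Fb and Mb tissue dissected separately from E9.5 embryos of the B6C3F1 strain, in 32 libraries, 16 per tissue. Each tissue had 6 wild-type (WT) libraries and 10 from mutants: 4 of the triple knockout of Cdh6, Cdh8 and Cdh11 (TKO_Ex, where the study's methods, not the labels, give the Ex for exencephaly), 3 of the double knockout with exencephaly, an open cranial neural tube (DKO_Ex), and 3 of the double knockout with a milder cranial defect (DKO_CD). The sample titles name Cdh8 and Cdh11 for the group called DKO_Ex here and Cdh6 and Cdh8 for DKO_CD. These titles and the column headings hold no Ex or CD. The study's methods describe DKO_CD embryos as Cdh8/11 mutants with an elongated midbrain. The mutations are small germline deletions made by CRISPR/Cas9 at the exon with the start codon, so every cell of an embryo carries them. WT embryos came from WT matings and mutants from matings of triple heterozygotes, so the mutant groups do not have littermate WT controls and mating cannot be told apart from genotype. The labels do not say that libraries of a group are separate embryos, and p-values measure only the spread between these libraries.

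In the 12 DKO tables the column heading names the other DKO group than the record that holds the table. Groups follow the headings here, and under the records every DKO_Ex value below is a DKO_CD value and the reverse. Cdh11 was at 14.5 to 16.6 FPKM in TKO_Ex Mb, below all WT Mb libraries (17.9 to 28.7 FPKM), whereas Cdh8 (0.851 to 2.32 FPKM) overlapped WT Mb (1.14 to 10.1 FPKM). The library labelled TKO_Ex replicate 3 had Cdh6 at 3.1 FPKM in Mb and 3.74 FPKM in Fb, within the WT ranges of 1.04 to 3.55 and 2.04 to 4.0 FPKM, and the median of TKO_Ex Mb was 0.371 FPKM. Cdh6 in Mb was at 1.29 to 2.11 FPKM under the DKO_CD headings and at 1.86 to 3.12 FPKM under the DKO_Ex headings, within the WT range. Neither DKO group thus had the low Cdh6 of most TKO_Ex Mb libraries, although the labels name Cdh6 as mutated in one of them. Cdh11 in Fb was at 17.1 to 18.7 FPKM under the DKO_Ex headings, below all WT Fb libraries (19.5 to 25.3 FPKM). Under the DKO_CD headings it was at 12.7 to 25.3 FPKM in Fb, and in Mb both DKO groups overlapped WT. Which assignment of the DKO groups is right was not tested. In WT Mb replicate 5 the midbrain markers summed to 30.2 FPKM against a WT Mb median of 117 FPKM. Depth, estimated from the steps between low values, was about 1940000 to 3240000 fragments per library, and the TKO_Ex Mb libraries (1940000 to 2320000) all lay below the WT Mb libraries (2380000 to 2920000).

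The members covered a wide range of levels in FPKM (fragments per kilobase of exon, scaled to the mapped fragments of the library), a unit per length that allows levels of genes to be set side by side. Trp53 (ENSMUSG00000059552, chr11:69580359-69591873, plus strand, GRCm38) was the most abundant member, with a mean of 126 FPKM over the 32 libraries and a range of 101 to 155 FPKM, and only 5.86% of expressed genes (mean of at least 1 FPKM) were at or above that level. Bax (ENSMUSG00000003873, chr7:45461697-45466898, minus strand), which encodes a protein that opens the outer mitochondrial membrane in apoptosis, followed at 88.9 FPKM with a range of 60.5 to 123 FPKM, which overlapped that of Trp53. Mdm2 (ENSMUSG00000020184, chr10:117688875-117710758, minus strand) stood at 22.4 FPKM (range 17.8 to 31.6 FPKM), below every Bax value. The p53 gene and Bax thus stood above all the other members in every library.

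Ccng1, the gene of cyclin G1, a p53 target that binds a phosphatase acting on Mdm2 (ENSMUSG00000020326, chr11:40748552-40755311, minus strand), had a mean of 14.2 FPKM and a range of 8.91 to 23.9 FPKM, overlapping Mdm2. Sesn2, which encodes a stress-induced inhibitor of mTORC1 signalling, and Bbc3, the gene of the BH3-only death protein Puma, were at 6.66 and 5.95 FPKM. Phlda3, an inhibitor of Akt at the membrane, was at 4.93 FPKM, and Cdkn1a, the gene of the cyclin-dependent kinase inhibitor p21 (ENSMUSG00000023067, chr17:29090976-29100727, plus strand), at 3.96 FPKM with the widest relative range of 0.262 to 9.96 FPKM. Trp53inp1, which encodes a nuclear and autophagy protein that promotes p53-dependent death, was at 2.96 FPKM. Pmaip1, the gene of the BH3-only protein Noxa, was the lowest at 1.11 FPKM (0.273 to 2.74 FPKM), and 98.4% of expressed genes were at or above it. From Sesn2 down to Pmaip1 the range of each member over the 32 libraries overlapped the range of the next. Bax shares its locus with the annotated gene Gm45808 and Sesn2 with Gm12981, and fragments of the overlaps may be split between them.

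Of the members, 4 had a match to the p53 response element consensus, a pair of decamers without a spacer, in the 300 bases around an annotated start (250 before to 50 after, RefSeq, GRCm38.p6). Up to 3 mismatches were allowed, with the C and G of each decamer core kept, and a match counted on either strand. RefSeq gave a window for 8 members and 11 windows in all. The matches are shown because they mark out which members carry the letters p53 is known to bind close to their start, with the 20 matching bases in capitals and 5 bases on each side in lower case.
Cdkn1a, chr17:29090923-29090952, plus strand: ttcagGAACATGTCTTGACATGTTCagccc
Ccng1, chr11:40755457-40755486, minus strand: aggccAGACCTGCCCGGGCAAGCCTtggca
Bbc3, chr7:16309481-16309510, plus strand: cccgaCTGCAAGCCCCGACTTGTCCccagc
Trp53, chr11:69580279-69580308, plus strand: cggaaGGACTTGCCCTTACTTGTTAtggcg

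The Cdkn1a and Ccng1 matches each had 1 mismatch and began 51 and 195 bases before the annotated start of their window. The Bbc3 and Trp53 matches each had 3 mismatches and began 97 and 75 bases before it. Of 32851 windows of all genes, 1.38% held a match with up to 3 mismatches and 0.067% a match with at most 1, and by gene 441 of 27025 (1.63%) had a match. Cdkn1a and Bbc3 have further annotated starts, and the windows there held no match (for Cdkn1a, chr17:29093519-29093818). The windows of Phlda3, Sesn2, Bax and Mdm2 did not hold these letters, which says nothing of sites elsewhere in those genes.

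In the mutants, no member passed the test against WT. In TKO_Ex Mb, 0 of 10 members were called at an adjusted p under 0.05 (limma on log2(FPKM + 1), Benjamini-Hochberg over all genes tested), where 12 of 13361 genes (0.0898%) were, and 1 member had an unadjusted p under 0.05. In TKO_Ex Fb the counts were 0 of 10 members and 0.0603% of all genes, with 1 member at an unadjusted p under 0.05. In DKO_Ex, 0 of 9 members tested in Mb and 0 of 10 in Fb were called, beside 0.0903% and 0.0759% of all genes, with 0 and 1 at an unadjusted p under 0.05. In DKO_CD, 0 of 10 members were called in each tissue, beside 0.0375% of all genes in Mb and 0.0378% in Fb, and 0 had an unadjusted p under 0.05 in either. With so few genes called anywhere, a count of 0 among 10 did not stand apart from the background.

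**Figure D1:**
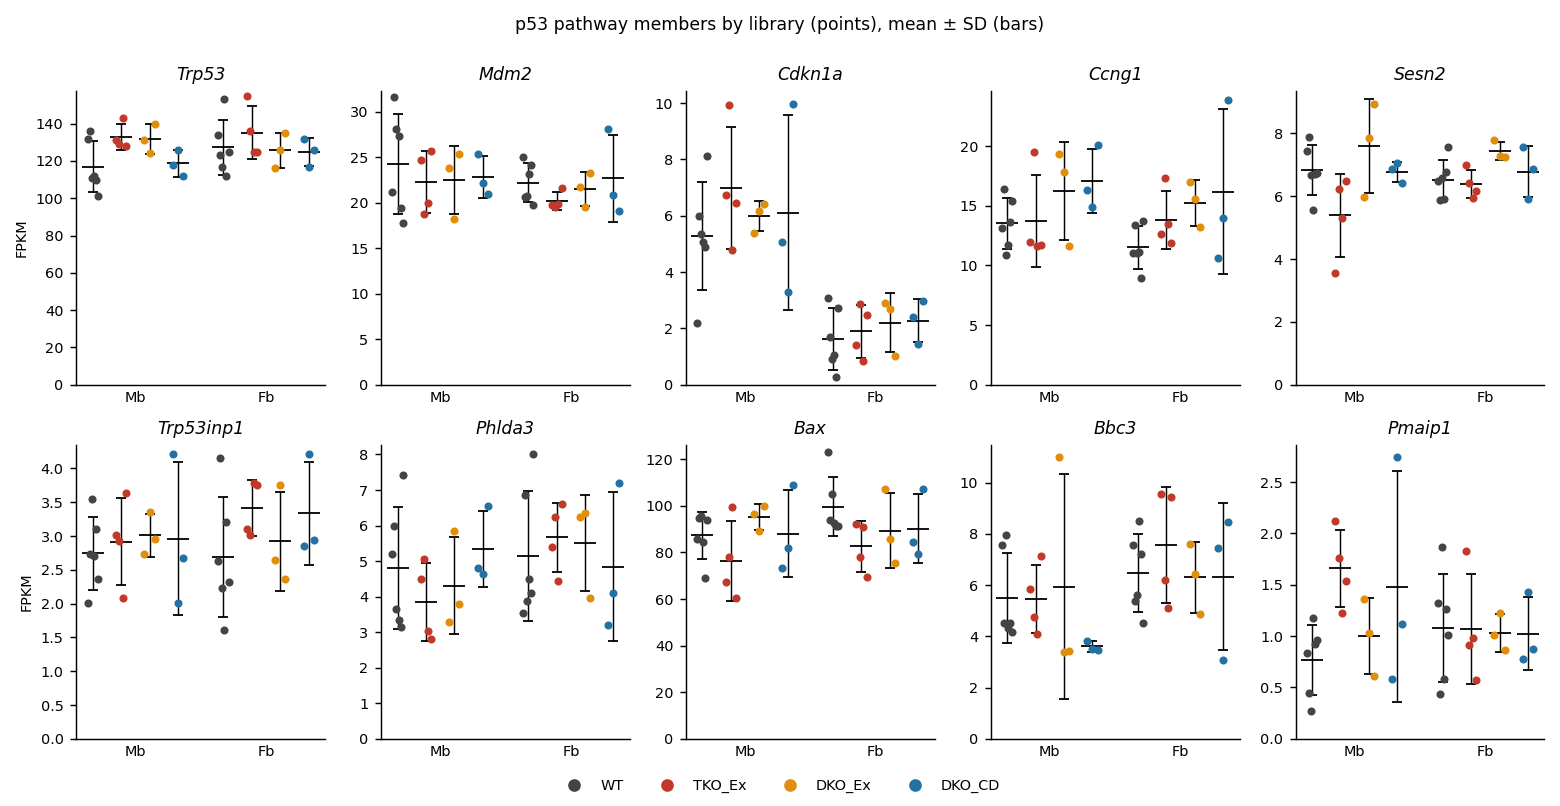
FPKM of the 10 members (1 panel per gene, vertical axis in FPKM) in the 8 groups, with 1 point per library and the mean with s.d. of each group. In the Cdkn1a panel the Mb groups (means 5.28 to 6.98 FPKM) sit above the Fb groups (1.62 to 2.27 FPKM). Bbc3 goes the other way by a smaller step, with Mb means of 3.6 to 5.95 FPKM below Fb means of 6.31 to 7.57 FPKM. Its libraries overlap between the tissues in every genotype. In several panels mutant points lie outside the WT range, such as Bax in Fb, with 3 of 4 TKO_Ex points below it, and Pmaip1 in Mb, with 4 of 4 above it.

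The intervals of the 59 tested differences say how large an unseen change could have been. The differences in log2(FPKM + 1) ran from -0.46 to 0.60, with a median size of 0.13 and a median 95% half-width of 0.41. In 47 of 59 the interval lay between a halving and a doubling of the WT mean of that gene. The 12 that did not all belonged to Cdkn1a, Pmaip1 or Bbc3. No interval of Trp53, Mdm2, Bax, Ccng1, Sesn2, Phlda3 or Trp53inp1 reached a doubling or a halving. Of the 59 differences 33 were above 0, 21 below 0 and 5 were 0 after rounding. Medians over the members were 0.00, 0.12, 0.12, 0.06, 0.04 and 0.00 in TKO_Ex Mb, TKO_Ex Fb, DKO_Ex Mb, DKO_Ex Fb, DKO_CD Mb and DKO_CD Fb, beside medians of all genes of 0.02, 0.02, 0.03, -0.01, 0.02 and 0.04.

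**Figure D2:**
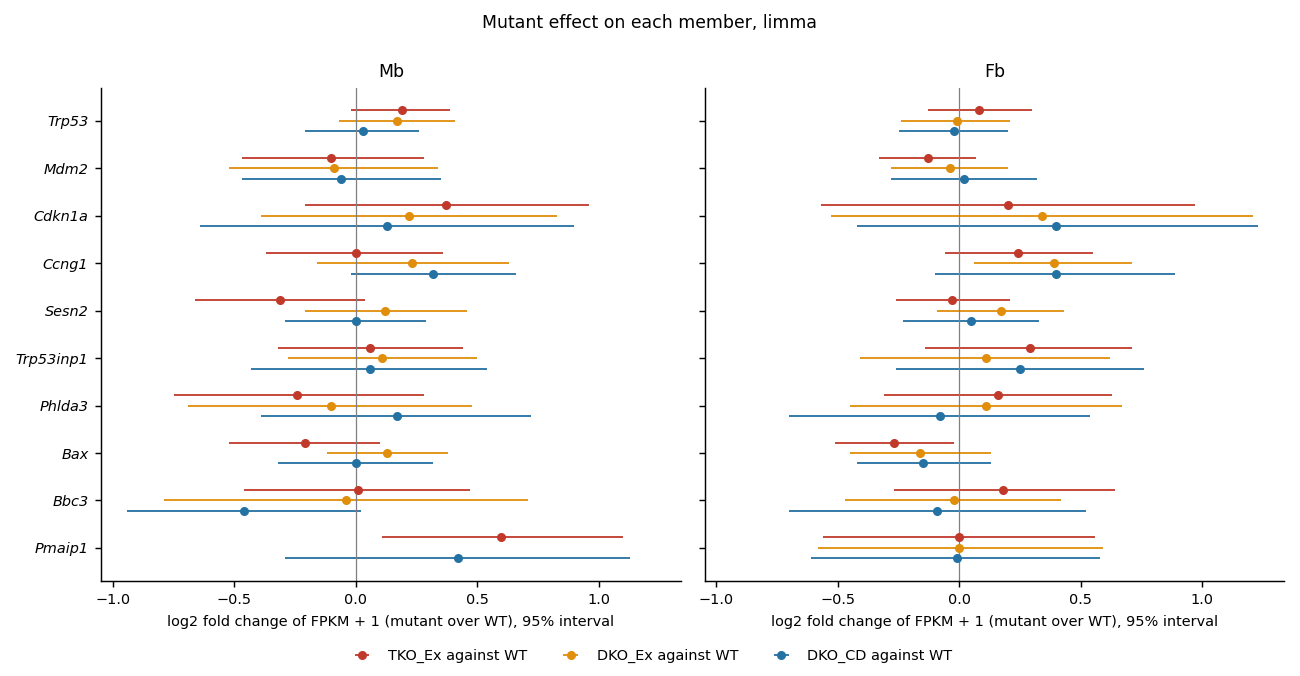
Difference from WT in log2(FPKM + 1) with its 95% interval (horizontal axis) for each member, by mutant group and tissue. The intervals of Trp53 together span -0.25 to 0.41 and those of Cdkn1a -0.64 to 1.23, and Pmaip1 in DKO_Ex Mb is absent because its mean lay below 1 FPKM.

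The differences of Trp53 and of its regulator Mdm2 lay between -0.13 and 0.19. Trp53 was at 117 ± 13.8 FPKM in WT Mb (s.d., n = 6; lowest 101, median 112, highest 136) and at 131, 129, 143 and 128 FPKM in the 4 TKO_Ex Mb libraries. The TKO_Ex libraries were in the upper part of the WT range, with 1 above it. The difference was 0.19 in log2(FPKM + 1) (95% interval -0.02 to 0.39, limma adjusted p = 0.631), and over the 6 mutant comparisons it ran from -0.02 to 0.19. Mdm2 was at 24.2 ± 5.53 FPKM in WT Mb (17.8 to 31.6) and 22.2 ± 2.16 FPKM in WT Fb (19.7 to 25.0). Its 6 differences ran from -0.13 to 0.02, 5 of them below 0, and the intervals together spanned -0.52 to 0.35. For Mdm2, a target that closes the feedback loop on p53, a change to 2 times the WT mean would be 0.97 on this scale, outside every interval.

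Among the targets that act on the cell cycle, Cdkn1a had a value above 0 in each of the 6 mutant comparisons, none past the test. In Mb the WT libraries held 2.2 to 8.13 FPKM (median 5.23, mean 5.28 ± 1.91, n = 6) and the TKO_Ex libraries 6.73, 9.95, 4.78 and 6.47 FPKM. One TKO_Ex library exceeded the highest WT library and the groups overlapped. The difference was 0.37 (95% interval -0.21 to 0.96, adjusted p = 0.757). DKO_Ex Mb libraries held 5.4, 6.18 and 6.43 FPKM and DKO_CD Mb libraries 5.08, 3.28 and 9.96 FPKM, all but 1 inside the WT range. In Fb the WT libraries held 0.262 to 3.07 FPKM (median 1.37), and every one of the 10 mutant libraries lay within that range. The Fb differences were 0.20, 0.34 and 0.40 for TKO_Ex, DKO_Ex and DKO_CD, with upper bounds of 0.97, 1.21 and 1.23, above the 0.67 that a doubling would give. The intervals thus include a doubling of Cdkn1a in mutant Fb, and 1 WT Fb library had about 2 fragments of the gene. In Mb a doubling would be 0.87, and the upper bounds were 0.96, 0.83 and 0.90 for TKO_Ex, DKO_Ex and DKO_CD. The Mb intervals of TKO_Ex and DKO_CD thus include a doubling as well. The 6 comparisons share their WT libraries within a tissue, so their common sign is not 6 separate observations.

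Ccng1 had differences of 0.00 to 0.40. In Fb the WT libraries ran from 8.91 to 13.7 FPKM (median 11, n = 6), the DKO_Ex libraries were at 17.0, 15.6 and 13.2 FPKM and the DKO_CD libraries at 10.6, 14.0 and 23.9 FPKM. In each of these DKO groups 2 of 3 libraries lay above the highest WT library and the third within the WT range. The DKO_Ex difference was 0.39 (SE 0.15, 95% interval 0.06 to 0.71) with an unadjusted p of 0.0233 and an adjusted p of 0.617 (limma), so it failed the correction. Over the mean of the 3 mutant groups in Fb, where 0.226% of all genes and 0 of 10 members were called, Ccng1 differed by 0.34 (95% interval 0.03 to 0.65, adjusted p = 0.504). In Mb, where 0.112% of all genes and 0 of 10 members were called, the same contrast gave 0.18 (95% interval -0.11 to 0.48). Markers of several cell types moved in the same Fb comparison. Of mesenchyme markers 6 of 6 tested were below WT in DKO_Ex Fb, none called (lowest adjusted p = 0.388, limma). Their summed levels were 123 to 139 FPKM against 154 to 182 FPKM in WT Fb. Primitive red cell markers were below WT as well (-0.78 to -0.24, none called), with sums that overlapped WT. Surface ectoderm sums were 78.5 to 163 FPKM against 57.1 to 94.9 FPKM in WT Fb. The part of these markers in the Ccng1 value was not tested.

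Of the targets that limit growth signals, Sesn2 was at 7.45, 7.87, 6.66, 5.55, 6.7 and 6.74 FPKM in WT Mb and at 3.56, 6.24, 5.31 and 6.47 FPKM in TKO_Ex Mb. TKO_Ex included the 2 lowest values of these 10 libraries. The difference was -0.31 (95% interval -0.66 to 0.04, adjusted p = 0.635), and the other 5 differences of Sesn2 lay between -0.03 and 0.17. Phlda3 ran from -0.24 in TKO_Ex Mb to 0.17 in DKO_CD Mb, with a lowest adjusted p of 0.849. Trp53inp1 was above WT in all 6 comparisons, by 0.06 to 0.29, with the lowest adjusted p at 0.709. In TKO_Ex Fb its libraries were at 3.1, 3.01, 3.79 and 3.76 FPKM, within the WT Fb range of 1.61 to 4.15 FPKM.

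The death genes did not share a direction. Pmaip1 in Mb had the largest difference of any member, and it rested on few fragments. The WT Mb libraries were at 0.84, 0.442, 0.273, 1.18, 0.921 and 0.958 FPKM, and the TKO_Ex Mb libraries at 2.12, 1.76, 1.23 and 1.54 FPKM. All 4 TKO_Ex values lay above the highest WT value, so the groups did not overlap. The difference was 0.60 (SE 0.22, 95% interval 0.11 to 1.10), with an unadjusted p of 0.0205 and an adjusted p of 0.502 over 13361 genes (limma). At this low level a doubling of the WT mean would be 0.51 on this scale, and the ratio of means was 2.16. Without a filter on low genes the difference kept its size (0.60, 95% interval 0.19 to 1.01) and had an adjusted p of 0.515. The lowest WT Mb value stood for about 2 fragments and the lowest TKO_Ex Mb value for about 7, and all TKO_Ex Mb libraries were shallower than those of WT. DKO_CD Mb libraries were at 0.582, 2.74 and 1.12 FPKM and DKO_Ex Mb libraries at 1.36, 1.03 and 0.615 FPKM, overlapping WT. Over the mean of the 3 mutant groups in Mb, Pmaip1 differed by 0.40 (95% interval -0.02 to 0.83, limma adjusted p = 0.678). In Fb the 3 mutant differences of Pmaip1 were 0.00, 0.00 and -0.01. The difference between its Mb and Fb effects in TKO_Ex was 0.60 (95% interval -0.07 to 1.27, adjusted p = 0.791), so a tissue difference was not shown.

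The differences of Bbc3 ran from -0.46 to 0.18, with 4 of 6 below 0 and none past the test. Its DKO_CD Mb libraries were at 3.83, 3.52 and 3.46 FPKM and the WT Mb libraries at 7.55, 4.53, 7.94, 4.32, 4.51 and 4.17 FPKM. All 3 DKO_CD values lay below the lowest WT value. The difference was -0.46 (95% interval -0.94 to 0.02, unadjusted p = 0.0593, limma adjusted p = 0.771). In DKO_Ex Mb 1 library was at 11 FPKM and the other two at 3.4 and 3.42 FPKM, on either side of the WT range. Bax was at 92.4, 77.9, 90.9 and 69.5 FPKM in TKO_Ex Fb and at 91.2 to 123 FPKM in WT Fb (median 93.4), so 3 of 4 TKO_Ex libraries lay below the WT range. The difference was -0.27 (95% interval -0.51 to -0.02, unadjusted p = 0.0371, adjusted p = 0.535). In that comparison 5 of 5 tested surface ectoderm markers were above WT, with summed levels of 89.1 to 222 FPKM against 57.1 to 94.9 FPKM in WT, and 6 of 6 mesenchyme markers were below it. In DKO_CD Mb 6 of 6 mesenchyme markers were above WT, summing to 154 to 232 FPKM against 88.4 to 175 FPKM. The part of these markers in the Bax and Bbc3 values was not tested. In bulk tissue, fewer cells of a type and less RNA per cell cannot be told apart.

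Whether a mutant effect differed between Mb and Fb was tested for each mutant group. The counts were 0 of 10 members for TKO_Ex beside 0.0149% of all genes, 0 of 9 for DKO_Ex beside 0% and 0 of 10 for DKO_CD beside 0.00746%. No member had an unadjusted p under 0.05 in these 3 tests (limma). For Cdkn1a the Mb effect minus the Fb effect was 0.17 in TKO_Ex, -0.12 in DKO_Ex and -0.27 in DKO_CD.

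Between the brain regions themselves 1 member differed. In WT, Cdkn1a was higher in Mb than in Fb. The WT Mb libraries 1 to 6 were at 2.2, 5.98, 5.37, 5.08, 4.89 and 8.13 FPKM and the WT Fb libraries at 3.07, 1.68, 0.91, 1.06, 0.262 and 2.72 FPKM. The groups overlapped through Mb replicate 1 alone, which lay below Fb replicates 1 and 6, and every other Mb library was above every Fb library. The means were 5.28 ± 1.91 and 1.62 ± 1.1 FPKM, a ratio of 3.26, and the difference in log2(FPKM + 1) was 1.31 (SE 0.30, 95% interval 0.65 to 1.96, limma adjusted p = 0.0158). That was 1 of 9 members tested, beside 8.26% of all genes (1102 of 13344). The other 8 members differed by -0.21 to 0.22, with adjusted p-values of 0.308 and above. Pmaip1 lay below the filter and differed by -0.22 (adjusted p = 0.663) without it. The call held without WT Mb replicate 5 (difference 1.31, adjusted p = 0.032).

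**Figure D3:**
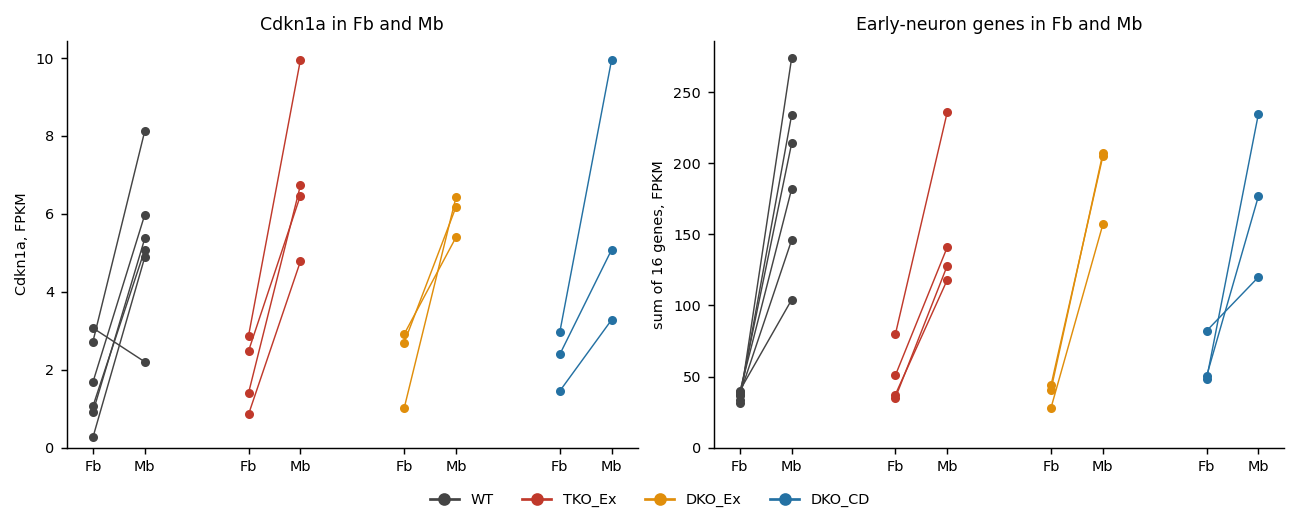
Cdkn1a (left) and the sum of 16 early neuron genes (right), in FPKM, in Fb and Mb of WT and each mutant group, with 1 point per library and lines joining libraries of the same number. Cdkn1a is higher in Mb in 15 of 16 pairs, with WT replicate 1 (2.2 in Mb, 3.07 in Fb) as the exception, and the sums rise from 31.5 to 40.0 in WT Fb to 104 to 274 in WT Mb.

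The same contrast within the mutant groups was added after the WT result was seen. In TKO_Ex the Cdkn1a difference was 1.48 (SE 0.29, 95% interval 0.83 to 2.13, limma adjusted p = 0.0272), 1 of 10 members beside 2.89% of all genes. Means were 6.98 ± 2.16 FPKM in Mb and 1.9 ± 0.935 FPKM in Fb, a ratio of 3.67, and the groups did not overlap. This call was lost without replicate 3, the number with WT-like Cdh6 (difference 1.43, adjusted p = 0.0682), and in 5 of the 8 fits that left out 1 library, namely Mb replicate 1, 2 or 4 or Fb replicate 1 or 3 (adjusted p up to 0.0774). In DKO_Ex, where 2.58% of all genes and 0 of 10 members were called, the difference was 1.19 (95% interval 0.51 to 1.87, adjusted p = 0.102). In DKO_CD, where 0.507% of all genes and 0 of 10 members were called, it was 1.04 (95% interval 0.14 to 1.94, adjusted p = 0.421). The ratios of means were 2.73 and 2.69, and in neither group did Mb and Fb overlap. The interactions above did not show that these sizes differed from WT. Over all groups, Mb was the higher library of a same-numbered pair in 3 of 16 pairs for Bbc3 and for Phlda3. For the remaining members other than Cdkn1a it was the higher in 6 to 10 of 16.

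Markers of early neurons moved with Cdkn1a between the regions. A list of 16 such genes, added after the WT result was seen, had all 16 above 0 in WT Mb, 15 of them called beside the 8.26% of all genes, and a median difference of 2.13. Neurog1, a proneural transcription factor, differed by 2.82 (adjusted p = 2.31e-05), and Elavl4, an RNA-binding protein of new neurons, by 1.89 (adjusted p = 1.86e-05). The sum of the 16 was 104 to 274 FPKM in WT Mb and 31.5 to 40.0 FPKM in WT Fb. WT Mb replicate 1, lowest in Cdkn1a, also had the lowest sum, whereas in TKO_Ex Mb replicate 2 had the highest Cdkn1a (9.95 FPKM) with a sum of 141 FPKM, below that of replicate 4 (236 FPKM). Of 8 G1 cyclins and kinases 2 were called, the cyclin D genes Ccnd1 and Ccnd2, higher in WT Mb by 0.45 and 0.61 (adjusted p = 0.00287 and 0.00817). The list had a median of 0.07, with Ccnd3 at 0.06 and Ccne1 at -0.31 (adjusted p = 0.851 and 0.0754). In the same contrast 0 of 14 genes of G2 and mitosis and 0 of 4 tested inhibitor genes of cyclin-dependent kinases other than Cdkn1a were called, with 0 and 1 at an unadjusted p under 0.05 (limma). Surface ectoderm markers were lower in WT Mb, summing to 23.3 to 36.6 FPKM against 57.1 to 94.9 FPKM, and neuroepithelium markers were higher, at 632 to 801 FPKM against 363 to 510 FPKM. Of 6 mesenchyme markers 4 were called lower and 1 higher in WT Mb, with sums of 88.4 to 175 FPKM against 154 to 182 FPKM. Forebrain markers separated the tissues, summing to 0.969 to 12.7 FPKM in WT Mb and 158 to 219 FPKM in WT Fb. Midbrain markers summed to 30.2 to 169 FPKM in WT Mb, lowest in replicate 5, and 13.8 to 17.6 FPKM in WT Fb. The part of neurons, progenitors, ectoderm or mesenchyme in the Cdkn1a difference was not tested.

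No other gene of the pathway lists was called in a mutant group against WT. From a list of 30 further p53 targets, 26 or 27 were tested in each comparison of a mutant group with WT and none was called, with medians of 0.02 to 0.10. At an unadjusted p under 0.05 there were 6 of 27 in TKO_Ex Fb, beside 8.66% of all genes, and 0 to 3 in each of the other 5 comparisons, beside 5.46 to 8.44%. The targets with the largest differences were Epha2, a receptor tyrosine kinase, at 0.94 in TKO_Ex Fb (adjusted p = 0.484) and Eda2r, a death receptor of the TNF family, at 0.87 in DKO_Ex Mb (adjusted p = 0.755). Of 18 regulators and family members of p53, 15 or 16 were tested and none was called. At an unadjusted p under 0.05 there were 4 of 16 in TKO_Ex Fb and in DKO_CD Fb, beside 8.66% and 8.44% of all genes, and 1 or 2 in each of the others. Atm, the kinase that signals double-strand breaks, was at 0.79 in DKO_CD Fb (adjusted p = 0.546) and at 0.71 in TKO_Ex Fb (adjusted p = 0.541). Trp73 and Cdkn2a, the gene of the Mdm2 inhibitor Arf, had means under 1 FPKM in all 8 groups.

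None of the survival genes of the Bcl2 family (4 tested), the further death genes (6 tested), the caspase cascade (17 tested) or the caspase inhibitors (5 or 6 tested) was called in any of the 6 comparisons (limma). At most 1 gene of each list had an unadjusted p under 0.05 in a comparison, other than 2 cascade genes in DKO_CD Fb. Bcl2l2, a survival gene, was at -0.73 in DKO_CD Mb (adjusted p = 0.532) and at -0.56 in TKO_Ex Mb (adjusted p = 0.515). Apaf1, the scaffold on which caspase-9 is activated, was at -0.57 in DKO_Ex Fb (adjusted p = 0.714), and Casp6, an executioner caspase, at 0.56 in DKO_CD Mb (adjusted p = 0.712). Cflar, an inhibitor of caspase-8, was at 0.65 in DKO_CD Fb (adjusted p = 0.485).

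Between WT regions 3 of 26 further p53 targets were called, 2 higher and 1 lower in Mb, a share near the 8.26% of all genes. Trp53i11 was at 74.7 ± 16.7 FPKM in Mb and 23.7 ± 2.54 FPKM in Fb (difference 1.60, adjusted p = 2.76e-06). Btg2, an antiproliferative gene also known from neurogenic divisions, was at 15.8 ± 4.72 and 6.88 ± 1.26 FPKM (difference 1.05, adjusted p = 0.00387). Tnfrsf10b, a death receptor for Trail, was lower in Mb at 1.71 ± 0.39 against 3.04 ± 0.666 FPKM (difference -0.57, adjusted p = 0.035). Mb was above Fb in 16 of 16 same-numbered pairs for Trp53i11 and for Btg2. None of the 15 regulators, 4 survival genes, 6 death genes, 17 cascade genes and 6 inhibitors tested was called between WT regions (limma), with 3, 2, 1, 0 and 0 at an unadjusted p under 0.05, beside 20.9% of all genes.

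Libraries of the same group differed from each other in some members more than in others. After the mean of each group was subtracted, Ccng1 and Phlda3 deviated together over the 32 libraries (Pearson's r = 0.69, Spearman's rho = 0.60). Without the 2 libraries farthest from the median r was 0.68 or 0.62, by which 2 were left out. Cdkn1a had r = 0.50 with Phlda3 (rho = 0.49, and r = 0.39 or 0.58 by which 2 libraries were left out). With Ccng1 it had r = 0.49 (rho = 0.49, and r = 0.45 or 0.48 without 2). Mdm2 ran opposite to Ccng1, with r = -0.52 (rho = -0.56, and r = -0.44 without 2 libraries). Over 13440 genes the 5 most like Ccng1 were Aebp1 (r = 0.72), Phlda3 (0.69), D030055H07Rik (0.66), Fam131a (0.65) and Desi2 (0.63). The 5 most like Cdkn1a were Gm49396 (0.70), Coq4 (0.65), Kdm1b (0.64), Mtmr7 (0.64) and D330041H03Rik (0.64), and Phlda3 and Ccng1 ranked 96 and 108. Points share library depth and composition, and these correlations are descriptions.

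The deviation of Ccng1 in an Mb library was also seen in the Fb library of the same number. Over 16 such pairs r was 0.66 (rho = 0.65, and 0.61 without 2 pairs), and in 15 of 16 both libraries lay on the same side of their group mean, against a median of 8 of 16 over all genes. For Phlda3 r was 0.60 (rho = 0.41, and 0.44 without 2 pairs) with 12 of 16 pairs on the same side. Of 13329 genes 3.53% had an r at or above that of Ccng1 and 5.18% at or above that of Phlda3, and the median of all genes was 0.08. In DKO_CD replicate 3, Ccng1 was at 20.1 FPKM in Mb and 23.9 FPKM in Fb, with Phlda3 at 6.56 and 7.2 FPKM and Cdkn1a at 9.96 and 2.96 FPKM, each the highest of its group. In WT replicate 6, Phlda3 was at 7.43 and 8.01 FPKM, the highest WT value in both tissues. In TKO_Ex replicate 2, Ccng1 was at 19.5 and 17.3 FPKM and Cdkn1a at 9.95 and 2.87 FPKM, again the highest of their groups. For the other members r ran from -0.32 for Sesn2 to 0.43 for Bax (-0.07 and 0.21 without 2 pairs). For Cdkn1a r was 0.18 (rho = 0.15), and 0.54 without 2 pairs. The labels do not say that the same number means the same embryo.

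**Figure D4:**
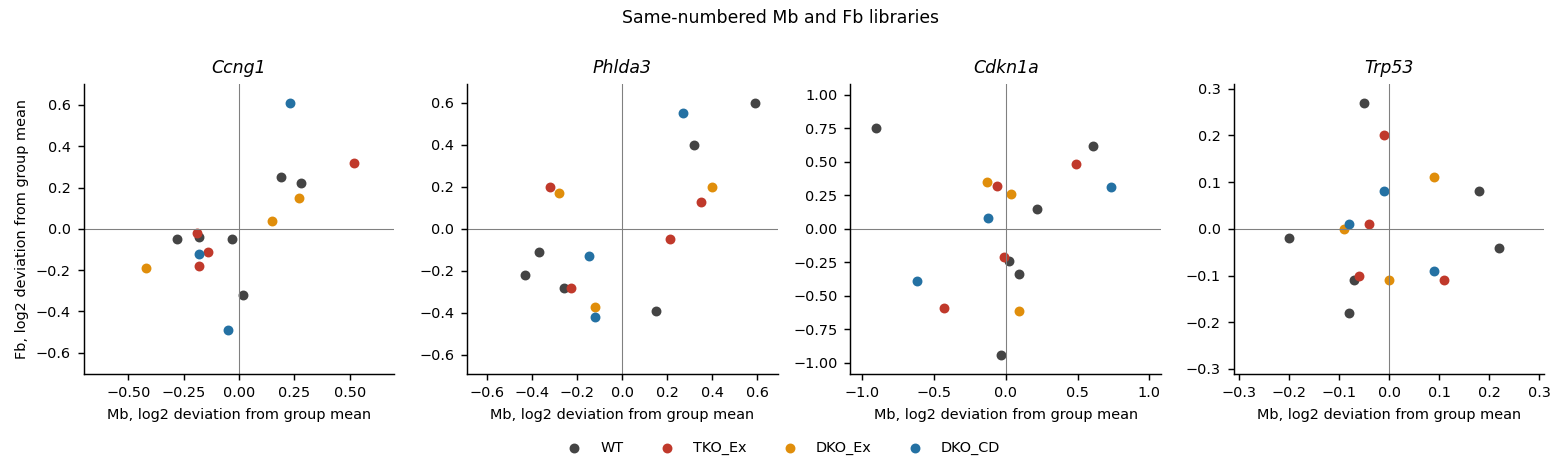
Deviation from the group mean in log2(FPKM + 1) of the Mb library (horizontal axis) and the Fb library of the same number (vertical axis) for Ccng1, Phlda3, Cdkn1a and Trp53, with 1 point per pair, coloured by group, and axis limits that differ between panels. Ccng1 points lie on the same side of 0 on both axes in 15 of 16 pairs.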

How the data were processed

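Fb and Mb RNA of E9.5 embryos was measured in 32 libraries. The authors mapped reads of directional libraries to GRCm38/mm10 (TopHat2), computed FPKM with Cufflinks and deposited 1 table of FPKM values per library. HTSeq and DESeq2 are named for their read counts, not analysed here. Versions and the annotation are not given in the sources used here. Of 48641 rows, 65 repeated an identifier. GENCODE M21 gave symbols and positions for 48218 of the 48576 identifiers.

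Tests took the genes whose mean in a comparison reached 1 FPKM and were run on log2(FPKM + 1) with limma 3.58.1 (R 4.3.3, moderated by a mean-variance trend, threshold adjusted p of 0.05). A difference on this scale understates the change of low genes. Comparisons of mutant groups with WT used their own libraries, and those of the mean of the 3 mutant groups used all 16 of a tissue. The script was checked on simulated data. FPKM keeps no counts. Steps between low values gave the depth, and 88.6 to 96.1% of low values came out whole at it. Tables were made with Python 3.11.15, NumPy 2.4.6, pandas 2.3.3 and SciPy 1.17.1, and plots with Matplotlib 3.10.9.

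Every member that passed the filter was tested in every comparison. For the mean of the mutants, the tissue interactions and the regions within mutants, values of only some members are printed. From the other lists the rule named called genes, or otherwise up to 2 of the largest difference per comparison, of which only the largest over the comparisons are printed. Alternatives were the pseudocount, the filter, the scaling, the trend, a sex covariate (Xist), all groups in 1 fit, DKO groups by record, a replicate block and each library left out. Members and lists were chosen with earlier results of these data known.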

Additional observations from a re-analysis of the deposited data

Results flagged for a closer look

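Among the 4 TKO_Ex Mb libraries, Ccng1 was at 19.5 FPKM in replicate 2 and between 11.6 and 12 FPKM in the others. The gap to the nearest library made up 0.946 of the whole range, above Dixon's critical value of 0.829 for 4 samples. The TKO_Ex Fb library of the same number was the highest of its group as well, at 17.3 FPKM. Of 40 combinations of member and group examined, chance alone flags about 1 in 20, and 1 was flagged.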

How the results depend on the processing

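Over the 11 comparisons of mutants with WT and of mutant effects between tissues, 249 alternative fits were made, and none called a member (lowest adjusted p 0.355). Of 2417 member values under these fits 116 changed sign, none of them among the 366 whose difference was at least 0.3. The higher Cdkn1a level in WT Mb was called in 12 of 12 fits that left out 1 library (difference 1.12 to 1.49, adjusted p 0.00465 to 0.0392) and in 7 other fits (0.63 to 1.87, the ends being pseudocounts of 5 and 0.1, adjusted p 0.0128 to 0.0412). With at least 1 FPKM required in every library the count of members was 0, because that filter removes Cdkn1a. In TKO_Ex the count fell from 1 to 0 without a filter (Cdkn1a difference 1.48, adjusted p = 0.0608), with that strict filter, and without replicate 3 (adjusted p = 0.0682), and ranged from 0 to 1 over fits that left out 1 library (adjusted p 0.033 to 0.0774). In the other cases the cause was not tested.

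Counts over all genes moved more than those of members. The 12 genes of TKO_Ex Mb became 0 to 17 by setting and 4 to 52 by library left out, the 8 of TKO_Ex Fb 0 to 12 and 0 to 8, the 12 of DKO_Ex Mb 1 to 17 and 3 to 14, the 10 of DKO_Ex Fb 2 to 11 and 6 to 14, the 5 of DKO_CD Mb 1 to 12 and 3 to 10, and the 5 of DKO_CD Fb 4 to 15 and 2 to 10. The 1102 genes of WT Mb against Fb became 780 to 1231 and 870 to 1317. Between regions of the mutants, the 389 of TKO_Ex became 163 to 421 and 253 to 337, the 344 of DKO_Ex 68 to 360 and 163 to 233, and the 68 of DKO_CD 35 to 344 and 26 to 77. For the mean of the mutants, the 15 in Mb became 7 to 23 and 9 to 19, and the 30 in Fb 9 to 30 and 12 to 30. In each comparison of mutants with WT the lowest count by setting was reached with the replicate block. That block matches unrelated WT and mutant libraries by number.

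Labels do not say that a number marks an embryo. Deviations of same-numbered Mb and Fb libraries correlated at 0.01 to 0.14 over genes, above 0.1 in 4 of 16 pairs, so the pairing was not established by this measure. Against that, 13 of 16 Mb libraries correlated best with the Fb library of their own number, and 16 of 16 pairs were alike in the sex-linked genes Xist and Ddx3y. With the replicate block, Cdkn1a between regions had limma adjusted p-values of 0.0412 in WT, 0.0193 in TKO_Ex, 0.158 in DKO_Ex and 0.274 in DKO_CD. These lay on the same side of the threshold as without it. Between mutants and WT the block matched libraries by number alone. A WT and a mutant library are never the same embryo, so there the block does not test the pairing. No member was called with it. Depth limits Pmaip1 and Fb Cdkn1a, at about 2 fragments in their lowest libraries.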

Other observations

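Trp53i11 and Btg2, p53 targets that were higher in WT Mb, were also set against Fb within the mutants. Trp53i11 was higher in Mb of TKO_Ex (difference 1.10, limma adjusted p = 0.00854) and DKO_Ex (1.58, adjusted p = 0.00144), and in DKO_CD it differed by 1.09 (adjusted p = 0.0652). Btg2 was higher in Mb of DKO_Ex by 0.92 (adjusted p = 0.0498), and it differed by 0.80 in TKO_Ex (adjusted p = 0.159) and by 0.54 in DKO_CD (adjusted p = 0.44). Tnfrsf10b, lower in WT Mb, was at 2.54 ± 0.647 FPKM in TKO_Ex Mb and 2.55 ± 0.24 FPKM in TKO_Ex Fb (s.d., n = 4). Its differences were -0.02 in TKO_Ex, -0.06 in DKO_Ex and -0.21 in DKO_CD (adjusted p = 0.988, 0.971 and 0.88).

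In DKO_CD Fb all 13 tested early neuron genes were above WT, with a median of 0.64 beside 0.04 over all genes. None was called, and 5 had an unadjusted p under 0.05 (limma). Their summed level was 48.2 to 82.1 FPKM there and 31.5 to 40.0 FPKM in WT Fb, without overlap. Cdkn1a in the same libraries was at 2.39, 1.45 and 2.96 FPKM, and the library with the highest sum had the lowest Cdkn1a. In TKO_Ex Mb 14 of 16 were below WT, with a median of -0.29. None was called and 1, Stmn2, had an unadjusted p under 0.05 (0.0425, limma), and the sums overlapped at 118 to 236 FPKM against 104 to 274 FPKM in WT. Cdkn1a there had a mean of 6.98 FPKM against 5.28 FPKM in WT.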
